A study of Arabidopsis thaliana with 12 samples.

Results

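Root transcript levels of the Arabidopsis thaliana mutants cngc1 and akt1 were compared directly, using the 3 arrays labelled cngc1 (replicates 1 to 3) and the 3 labelled akt1 (replicates 1 to 3), which are 6 of the 12 arrays of the series. The akt1 plants were the line akt1-1 in the accession Wassilewskija. For the cngc1 plants the labels name the mutant in place of an accession, so their background and allele are not given, and a difference between cngc1 and akt1 roots cannot be told apart from a difference between accessions. All plants were grown in a growth room at 80% humidity, and whole roots were taken at growth stage 3.90. The remaining 6 arrays, 3 of the mutant cngc4 (accession not given) and 3 of the wild type Wassilewskija (called ws2), entered the fit so that the 4 groups shared 1 estimate of the spread. Each sample pooled 20 to 40 plants. The labels do not say whether replicates were grown separately. The p-values therefore set each difference only against the spread among these samples, as estimated over the 4 groups.

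AKT1 and CNGC1 are both cation channels of the plasma membrane. AKT1 is a voltage-gated, inward-rectifying potassium channel of root epidermal and cortical cells and one of the main routes by which roots take up potassium. CNGC1 belongs to the cyclic nucleotide-gated family, whose members conduct potassium, calcium and other cations and bind calmodulin. The series was set up to profile expression in mutants that lack these channels, and setting the 2 mutants against each other asks in which transcripts they differ.

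No probe set names AKT1, CNGC1 or CNGC4 alone in the annotation used here, and their loss in the mutants was therefore not checked. Values are deposited signals in arbitrary linear units, and each log2 fold change is a difference, cngc1 minus akt1, in mean log2(signal + 16), which understates changes of weak probe sets. Of 22746 probe sets without controls, 14745 lay above the 40th percentile of their array on at least 3 arrays and were tested, and 8132 of these name 1 gene. Standard errors of the log2 fold changes had a median of 0.155. The number of arrays limits the precision, and 3 arrays against 3 cannot reach an exact permutation p below 0.1. The 6 arrays had median signals of 46.2 to 48.5 in cngc1 and 43.3 to 48.1 in akt1. Among the 12 arrays, background was highest on cngc1 replicate 3 (143.09), which also had 1251 outlier cells. It correlated less with its own group (mean 0.954) than any other array did. Its closest array overall was akt1 replicate 3, while akt1 replicate 1 was closest to cngc1 replicate 2.

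Gene by gene, cngc1 and akt1 roots were told apart by a single probe set. At an adjusted p under 0.05 (limma with Benjamini-Hochberg adjustment), 1 of 14745 probe sets passed (0.00678%). It was lower in cngc1, and 0 (0%) were higher. Leaving out akt1 replicate 1 brought the number that passed to 11, leaving out ws2 replicate 3 to 3, and leaving out cngc1 replicate 3 to 2. In the fit of all arrays, the next smallest adjusted p was 0.0724, and 112 probe sets had an adjusted p under 0.25. There were 1651 probe sets (11.2%) at an unadjusted p under 0.05, and 985 when akt1 replicate 2 was left out. Of the 1651, 976 were higher in cngc1 (6.62% of those tested) and 675 lower (4.58%). This excess of higher probe sets, 59.1%, depended on the scaling: the share was 52.3% after quantile normalization and 44.9% after centring each array on its median. The arrays did not overlap for 2201 probe sets (14.9%), 1329 of them higher in cngc1 (9.01%) and 872 lower (5.91%). At least a 2-fold difference was seen for 3 probe sets higher and 24 lower in cngc1. Among probe sets that name 1 gene, the 12 of smallest p in each direction are described next, and of these AT1G27090 alone passed.

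**Figure D1:**
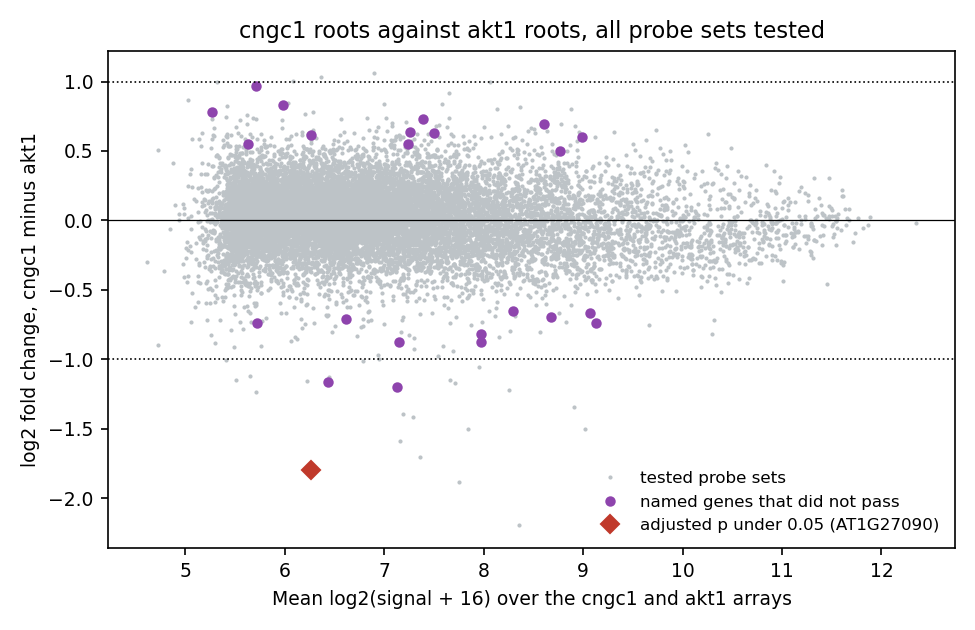
Each point is 1 of the 14745 probe sets tested, with its mean log2(signal + 16) over the cngc1 and akt1 arrays on the x axis and its log2 fold change, cngc1 minus akt1, on the y axis. The red diamond is AT1G27090, the 1 probe set with an adjusted p under 0.05, purple points are the other named genes, and dotted lines mark a 2-fold difference.

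The transcript that fell in cngc1 relative to akt1 was AT1G27090, a protein-coding locus of chromosome 1 that carries no gene name in the tables used here. Its signals were 27.8, 24.3 and 23.5 on the cngc1 arrays, against 128.4, 119.4 and 134.2 on the akt1 arrays. The 3 cngc1 arrays lay close together and far below the 3 akt1 arrays. All 3 cngc1 values were also below the 40th percentile of their own array (31.7 to 32.8), so the level in cngc1 is a bound. The log2 fold change was -1.80 (SE 0.148, adjusted p = 4.86e-05 with limma). Taking the 40th percentile as the floor, the locus was at least 3.92-fold lower in cngc1 than in akt1. The signals were 196, 134.1 and 173.1 in cngc4 and 188.2, 161.8 and 130.1 in ws2, so cngc1 stood apart from the arrays of all 3 other genotypes, with no overlap. The direction and the call held under all 24 alternative settings, with log2 fold changes from -2.34 to -1.10 and adjusted p-values of at most 0.00114. Of the 53 tested genes within 100 genes on each side of AT1G27090, 0 passed, and 7 (13.2%) had an unadjusted p under 0.05 by limma, against 11.2% of all probe sets.

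**Figure D2:**
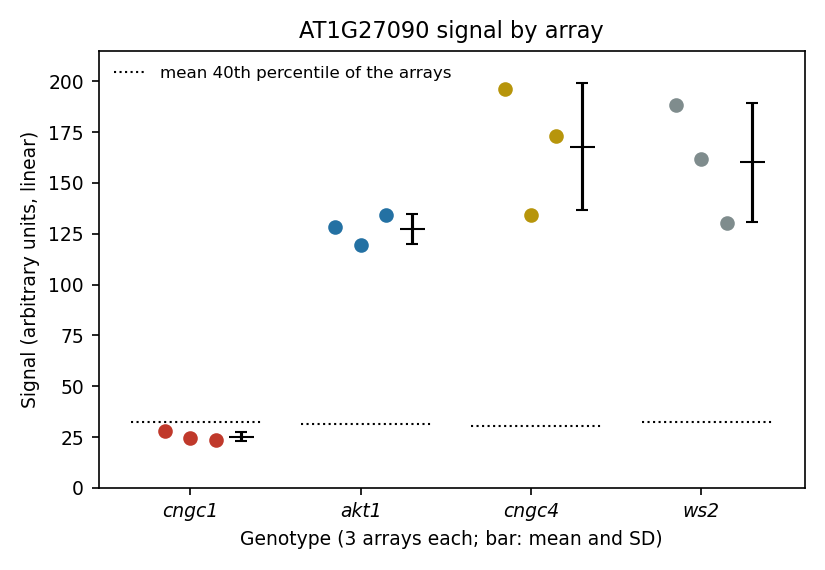
Signal of AT1G27090 on a linear axis, with 1 point per array and, beside the points, the mean and SD of the 3 arrays. The cngc1 arrays (23.5 to 27.8) lie under the dotted 40th percentile of their arrays, and the akt1, cngc4 and ws2 arrays all lie at 119.4 or above.

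The chromosome segments around the channel genes were looked at in the same way. Within 100 genes on each side of CNGC1 (chromosome 5), 51 genes were tested and 0 passed, with 4 (7.84%) at an unadjusted p under 0.05. Around AKT1 (chromosome 2), 52 genes were tested and 0 passed, with 5 (9.62%) at an unadjusted p under 0.05. Both shares were under that of all probe sets tested.

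The genes lower in cngc1 after AT1G27090 were known by locus number in 8 of 11 cases, and none passed the test. They had log2 fold changes from -1.20 to -0.65 and limma adjusted p-values from 0.118 to 0.206. For every one of them the 3 cngc1 arrays lay below the 3 akt1 arrays, against 5.91% of all probe sets. These genes were chosen for a small p on the same arrays, which favours such a separation. AT2G23120, on chromosome 2, had signals of 488.1, 407 and 362.2 in cngc1, against 675.6, 736.5 and 708.8 in akt1. Its log2 fold change was -0.74 (SE 0.130, adjusted p = 0.118 by limma), the smallest p among genes that did not pass. The akt1 arrays were tight and high, and the ws2 arrays, at 461.5 to 529.6, lay near the cngc1 ones.

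AT3G57450 had signals of 173.8, 183.2 and 161.2 in cngc1, against 304.7, 356.1 and 292.6 in akt1 (log2 fold change -0.82, limma adjusted p = 0.160). AT1G65510 had 29.8, 59 and 39.6 in cngc1, against 72.9, 155.2 and 125.9 in akt1 (log2 fold change -1.17, limma adjusted p = 0.160). For both, the highest cngc1 array was below the lowest akt1 array. AT2G16005 showed the widest difference among the 11, with 92.8, 73.8 and 64.3 in cngc1, against 150.6, 291.4 and 170.9 in akt1 (log2 fold change -1.20). Its akt1 replicate 2 value was well above the other akt1 arrays.

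Of the 3 genes with a name, GH3.17 encodes an enzyme of the GH3 family, which conjugates auxin to amino acids. Its signals were 146.4, 184.4 and 178.6 in cngc1, against 236.8, 374.1 and 379.8 in akt1. The log2 fold change was -0.87 (SE 0.178, adjusted p = 0.185 by limma). The akt1 replicate 1 array was the lowest of its group, and without that array GH3.17 passed the test with a log2 fold change of -1.09 and an adjusted p of 0.0170 (limma). AT1G65510 (-1.44, adjusted p = 0.0170) and AT2G19970 (-1.11, adjusted p = 0.0271) also passed in that limma fit.

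RALFL32 encodes a RALF-like peptide, a family of small secreted signals. Its signals were 388.9, 390.9 and 448.8 in cngc1, against 696.2, 791.8 and 519.6 in akt1, with a log2 fold change of -0.67 (limma adjusted p = 0.185). ARPN encodes plantacyanin, a small blue copper protein. Its signals were 295, 342.7 and 279.1 in cngc1, against 421.5, 585.6 and 518.7 in akt1, with a log2 fold change of -0.70 (limma adjusted p = 0.185). In both genes the cngc1 arrays were tight and the akt1 arrays spread out. The remaining loci were AT5G47950 (-0.71), AT2G19970 (-0.88), AT4G19200 (-0.65) and AT3G19320 (-0.74), the last of them weak, with 2 of 3 cngc1 arrays below the 40th percentile.

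The 12 genes of smallest p among those higher in cngc1 had log2 fold changes from 0.50 to 0.97 and limma adjusted p-values from 0.185 to 0.214, and none passed. AT1G49470 had the smallest p, with signals of 234.8, 178 and 219.7 in cngc1, against 143.3, 129.5 and 118.1 in akt1 (log2 fold change 0.63, SE 0.131, limma adjusted p = 0.185). BGLU42 encodes a beta-glucosidase, an enzyme class that releases sugars from glucosides. It had 186.8, 168.6 and 253 in cngc1, against 112.6, 93.9 and 140.9 in akt1 (log2 fold change 0.73). The arrays of the 2 mutants did not overlap for either gene, which choosing by a small p favours. BGLU42 was highest on cngc1 replicate 3, and without that array its log2 fold change was 0.57.

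Organelle genes made up 3 of these 12. psaA, a plastid gene for a core protein of photosystem I, had signals of 59.2, 60 and 87.6 in cngc1, against 35.1, 22.4 and 37.9 in akt1 (log2 fold change 0.83, limma adjusted p = 0.185). The plastid gene rps2, for a protein of the small ribosomal subunit, had 160.1, 168.2 and 199.2 in cngc1, against 99, 119.8 and 102.1 in akt1 (log2 fold change 0.64). ccb382, a mitochondrial gene of cytochrome c maturation, had 405.3, 435.8 and 623 in cngc1, against 310.9, 260.9 and 300.6 in akt1 (log2 fold change 0.70). In all 3 the cngc1 replicate 3 array was the highest.

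The other higher loci carry no gene name here. AT4G34450 had 632.6, 571.6 and 621.8 in cngc1, against 363.7, 409.7 and 417.2 in akt1 (log2 fold change 0.60). AT5G11560 had 521, 476.5 and 514.2 in cngc1, against 363.4, 345.3 and 347.8 in akt1 (log2 fold change 0.50, SE 0.117), and both groups were tight. AT5G27330 (0.62) and AT1G80620 (0.55) also had arrays that did not overlap. AT3G20430 (0.97), AT2G13290 (0.78) and the pseudogene AT5G41710 (0.55) were weak, with 2, 3 and 3 of the akt1 arrays below the 40th percentile, so their level in akt1 is uncertain. Against the 40th percentile as a floor, AT5G41710 was at least 1.41-fold higher in cngc1, and 1 of the 3 cngc1 arrays of AT2G13290 was also below it.

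The ws2 arrays, which the contrast did not use, were set beside these genes. The ws2 mean lay between the cngc1 and akt1 means for 12 of the 12 genes higher in cngc1 and for 11 of the 12 lower, against 41.6% of all genes tested. These genes were chosen for a wide gap between the mutants, which leaves more room for another group to lie inside it. The gene that did not follow was AT1G27090, the only one that passed. It was below ws2 in both mutants, with a log2 difference of -2.08 in cngc1 and -0.28 in akt1. For AT2G23120 the log2 difference from ws2 was -0.22 in cngc1 and 0.53 in akt1, and for AT4G19200 it was -0.09 in cngc1 and 0.56 in akt1. For GH3.17 it was -0.61 in cngc1 and 0.27 in akt1, and for ARPN -0.53 in cngc1 and 0.17 in akt1. Both sets of differences share the ws2 arrays.

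**Figure D3:**
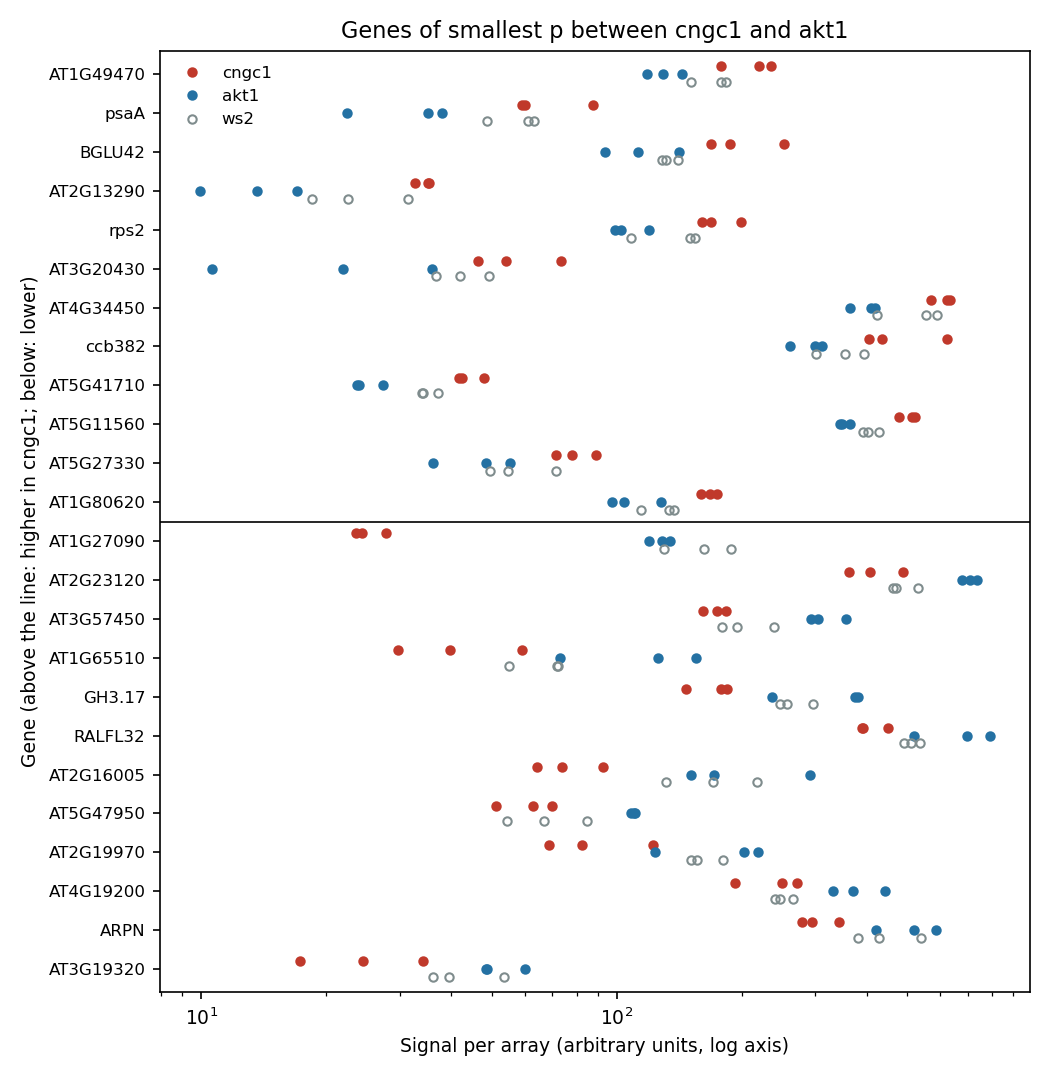
Signal per array on a log axis for the 24 genes of smallest p, with cngc1 (red), akt1 (blue) and ws2 (open grey) drawn from top to bottom within each gene. The 12 genes above the line were higher in cngc1 and the 12 below it lower. No gene has overlapping cngc1 and akt1 arrays, which the choice by a small p on these arrays favours. Only AT1G27090 passed the test.

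Plastid-encoded transcripts had the highest median log2 fold change of the gene lists with at least 5 tested members. In roots, plastids are mostly non-green, and their genome still encodes photosynthetic subunits, ribosomal proteins and an RNA polymerase. Of 69 annotated plastid genes 62 were tested, of which 52 had a positive log2 fold change and 10 a negative one (median 0.26), against 54.3% positive and a median of 0.02 over all probe sets. None passed at an adjusted p under 0.05 (0.00678% of all probe sets did). For 19 genes (30.6%) the 3 cngc1 arrays lay above the 3 akt1 arrays, against 9.01% of all probe sets, and for 0 they lay below, against 5.91%. Plastid transcripts share 1 small genome and long co-transcripts, so these genes are not independent of each other. The median stayed between 0.17 and 0.38 over the alternatives, left-out arrays included.

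The mean log2 level of the 62 plastid genes was 7.67, 7.87 and 7.57 on the cngc1 arrays, against 7.45, 7.50 and 7.37 on the akt1 arrays. The groups did not overlap, and the gap between the lowest cngc1 array and the highest akt1 array was narrow. The group means were 7.70 ± 0.154 in cngc1 and 7.44 ± 0.0658 in akt1 (SD, n = 3 each), with 8.17 ± 0.295 in cngc4 and 7.72 ± 0.215 in ws2 (SD, n = 3 each). The cngc1 arrays thus sat within the range of ws2 (7.48 to 7.89). So did akt1 replicate 2 (7.50), while akt1 replicates 1 (7.45) and 3 (7.37) lay below that range. The median difference from ws2 over these genes was 0.02 in cngc1 and -0.29 in akt1. In whole-root samples, fewer cells of a type and less RNA per cell cannot be told apart.

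By role, the 5 subunits of the plastid ATP synthase all had positive log2 fold changes (median 0.46). atpB had signals of 1351, 1306 and 1079 in cngc1, against 813.3, 778.9 and 952.9 in akt1 (log2 fold change 0.54, limma adjusted p = 0.230). Photosystem I subunits and assembly factors were positive in 6 of 7 cases (median 0.44), with psaB at 715.4, 779.2 and 538.5 in cngc1 and 445.2, 431.7 and 434.4 in akt1. Both genes had cngc1 arrays above every akt1 array. Photosystem II subunits were positive in 11 of 14 cases (median 0.26). Among them psbZ had 294.8, 335 and 297.3 in cngc1, against 192, 192.9 and 178.2 in akt1 (log2 fold change 0.67, limma adjusted p = 0.230). The exception with the widest difference was psbM, at 1868, 844.8 and 1589 in cngc1 and 1421, 2473 and 1853 in akt1 (log2 fold change -0.45), whose arrays overlapped.

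The 8 tested subunits of the plastid NDH complex, which passes electrons to plastoquinone, were all positive (median 0.24), as were the 3 RNA polymerase subunits (median 0.23). Ribosomal proteins were positive in 10 of 14 cases (median 0.17), and cytochrome b6f subunits in 4 of 5 (median 0.07). rbcL, the large subunit of Rubisco, had 104.1, 104.4 and 108.4 in cngc1, against 66.3, 83.9 and 81.7 in akt1 (log2 fold change 0.39). psbA, the D1 protein of photosystem II, had 454.9, 628.2 and 229.8 in cngc1 and 497.4, 412 and 274.3 in akt1 (log2 fold change 0.08), with a spread within each mutant wider than the gap between them.

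**Figure D4:**
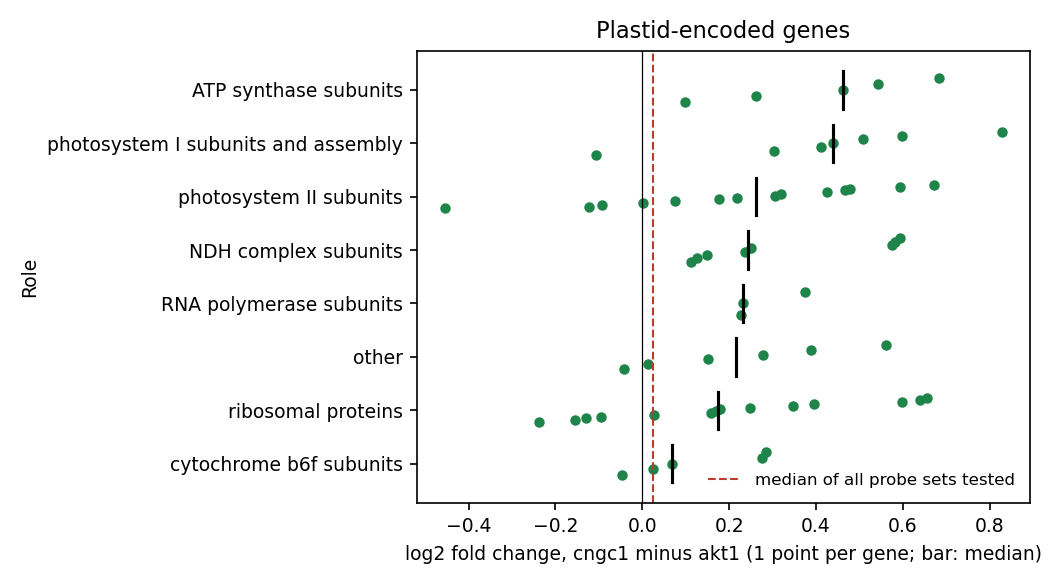
Log2 fold change, cngc1 minus akt1, of the 62 plastid-encoded genes tested, grouped by role, with 1 point per gene and a bar at each role's median. The dashed line is the median of all probe sets tested (0.02). Points lie to the right of 0 for 52 genes.

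Nuclear photosynthesis genes differed less. Of 24 annotated 21 were tested, and 16 were positive and 5 negative (median 0.12), with 0 called. For 4 of them (19.0%) all cngc1 arrays lay above all akt1 arrays, against 9.01% of all probe sets. AT4G01150 had 156.9, 209.1 and 146.2 in cngc1, against 127.4, 119.4 and 142.6 in akt1 (log2 fold change 0.35, limma adjusted p = 0.431). ATPC1, the gamma subunit of the plastid ATP synthase, had 164.6, 146.8 and 105.5 in cngc1 and 118, 87.6 and 107.8 in akt1, with overlap. Mitochondria-encoded genes were split, with 6 of 12 positive and 6 negative (median 0.02, and -0.01 after either quantile normalization or median centring).

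Shoot markers and RNA quality readings were set beside these lists. The summed signal of the 5 of 10 shoot markers measured was 415.5, 406.9 and 309.3 in cngc1, against 314.5, 305.7 and 286.2 in akt1. The 2 ranges overlapped at cngc1 replicate 3. All 5 are also members of the nuclear photosynthesis list described above, so their values repeat part of that list and are not a separate reading. None of the 5 was at 0, and none passed. All 5 had positive log2 fold changes (0.12 to 0.36), against 54.3% of all probe sets. CHLM, an enzyme of chlorophyll synthesis, had 92.2, 83.5 and 85.1 in cngc1, against 72, 74.1 and 67.8 in akt1. SBPASE, an enzyme of the Calvin cycle, had 38.3, 43.9 and 46.8 in cngc1, against 32.6, 38 and 37.8 in akt1. For these 2 of the 5 markers every cngc1 array was above every akt1 array, against 9.01% of all probe sets. RCA, the activase of Rubisco, overlapped and ran from 74.5 to 153.4 in cngc1 and from 71.4 to 113.4 in akt1. The 3-prime to 5-prime signal ratio of the actin control was 1.42 to 1.54 in cngc1 and 1.58 to 2.06 in akt1, without overlap. In the older control probe sets it was 4.66 to 5.27 in cngc1 and 5.40 to 6.32 in akt1 for actin, and 1.13 to 1.28 in cngc1 and 1.33 to 1.70 in akt1 for GAPDH. The newer GAPDH ratio (1.12 to 1.24 in cngc1, 1.12 to 1.19 in akt1) and both ubiquitin ratios overlapped. The part of shoot tissue and RNA quality in the differences was not tested.

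Markers of root cell types overlapped between the mutants where they were measured. PYK10, an abundant beta-glucosidase of roots, had signals of 2455.4 to 2623.6 in cngc1 and 2619.5 to 3054.7 in akt1. It was the only 1 of 4 listed whole-root markers measured, and the label whole root was not tested. The root hair markers EXPA7 and EXPA18, 2 of 9 in the list, summed to 273.8 to 395.6 in cngc1 and 252.6 to 465 in akt1. Their log2 fold changes were 0.34 for EXPA7 and -0.25 for EXPA18. GUT2 for xylem (1 of 12 markers), SWEET11 for phloem (1 of 7) and AUR1 for dividing cells (1 of 8) also overlapped. The root cap marker ATL63 (1 of 5) was too weak to be tested. Markers of the cortex, endodermis and non-hair epidermis were not analysed here. With so few markers, cell composition was not tested.

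The other gene lists held 0 called members. Of the 36 lists with at least 5 tested members, 17 had a positive and 19 a negative median, between -0.30 and 0.26. Leaving out 1 array moved the median by over 1.5 times in 39 of the 42 lists with at least 3 tested members, and 17 of the 42 changed sign in at least 1 alternative. The transport lists nearest to the mutated channels gave little to compare. The 5 annotated potassium-related genes, all cation/proton exchangers of the CHX family, were too weak to be tested, with no signal above 43.3. Aquaporins and the remaining CNGC family were not analysed here. Glutamate receptor-like channels were split, 2 of 4 positive, and the 4 proton pump genes all had small positive differences (median 0.20). Sugar transporters were negative in 8 of 14 cases (median -0.06). SWEET16, a sugar carrier of the vacuole membrane, had 224, 238.1 and 251.3 in cngc1, against 329, 355.5 and 335.6 in akt1 (log2 fold change -0.49, limma adjusted p = 0.355), and TMT2, a sugar carrier of the same membrane, had 41.2, 25.3 and 44.6 in cngc1, against 47.8, 60.6 and 74 in akt1 (log2 fold change -0.54).

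**Figure D5:**
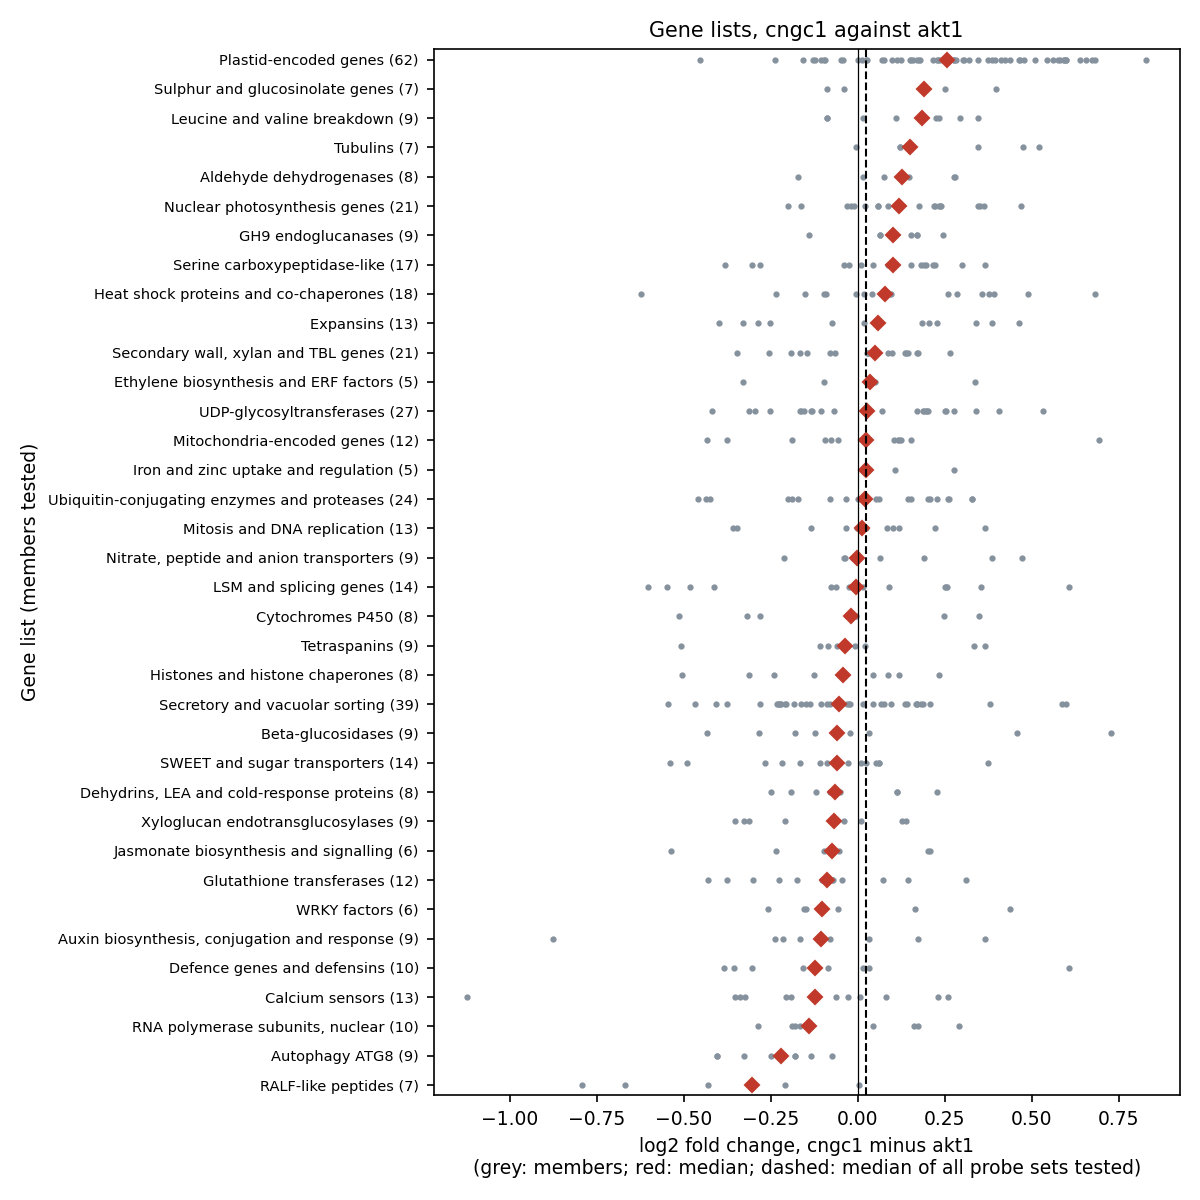
Log2 fold change, cngc1 minus akt1, of the members (grey) and median (red diamond) of the 36 gene lists with at least 5 tested members, whose number is in parentheses. The dashed line is the median of all probe sets tested (0.02), plastid-encoded genes have the highest median (0.26) and RALF-like peptides the lowest (-0.30).

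RALF-like peptides had the lowest median of these lists, -0.30, with 6 of 7 tested members negative. For 2 of them, RALFL32 and RALFL33 (28.6%), all cngc1 arrays lay below all akt1 arrays, against 5.91% of all probe sets. RALFL33 had 176.3, 235.7 and 245 in cngc1, against 355.1, 448.7 and 364.8 in akt1 (log2 fold change -0.79, limma adjusted p = 0.208). RALFL34 was level at 308.5, 299.8 and 268.3 in cngc1 and 314, 316.2 and 247.7 in akt1. The list's median stayed negative in every alternative, from -0.46 to -0.17.

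The 9 ATG8 genes, whose small ubiquitin-like products coat autophagosome membranes, all had negative log2 fold changes (median -0.22). For 2 of them (22.2%) all cngc1 arrays lay below all akt1 arrays, against 5.91% of all probe sets. APG8H had 633.1, 667.9 and 559.8 in cngc1, against 812.9, 870.1 and 789.4 in akt1 (log2 fold change -0.40, limma adjusted p = 0.355). ATG8C had 202.4, 237.3 and 304.4 in cngc1 and 258.5, 427.1 and 322.5 in akt1 (log2 fold change -0.41), with overlap. The akt1 replicate 2 array was the highest of its group for both. The median of the list stayed between -0.39 and -0.09 over the alternatives.

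Calcium sensors, the calmodulin-like and calcium-dependent kinase families among them, were negative in 9 of 13 cases (median -0.12). The calmodulin-like gene CML38 had 21.1, 25.1 and 9.9 in cngc1, against 121.9, 46.3 and 31.3 in akt1 (fitted log2 fold change -1.12, SE 0.399, limma adjusted p = 0.354). All 3 cngc1 values and 1 akt1 value were below the 40th percentile of their array, so the size of this gene's difference is uncertain. Its akt1 replicate 1 value was far above the other akt1 arrays, and without that array the fitted log2 fold change was -0.67. IQD23, a calmodulin-binding protein, had 56.4, 63.5 and 82 in cngc1, against 87.4, 86 and 92.3 in akt1 (log2 fold change -0.34).

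Tubulins, the subunits of microtubules, were positive in 6 of 7 cases (median 0.15). TUA6 had 1664, 1724 and 1718 in cngc1, against 1400, 1060 and 1109 in akt1 (log2 fold change 0.52, limma adjusted p = 0.317), and its cngc1 arrays were all above the akt1 arrays. TUB7 (0.48) and TUB6 (0.35) had overlapping arrays. Tubulin genes are close in sequence, so their probe sets may share signal.

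Heat shock proteins and co-chaperones were positive in 12 of 18 cases (median 0.08, and 0.01 without akt1 replicate 2). All cngc1 arrays lay above all akt1 arrays for 5 genes (27.8%), against 9.01% of all probe sets, and below them for 1 (5.56%), against 5.91%. Cpn60beta2, a plastid chaperonin subunit, had 172.7, 107.4 and 200.6 in cngc1, against 97, 83.5 and 92.5 in akt1 (log2 fold change 0.68, limma adjusted p = 0.274). ATERDJ2A, a co-chaperone of the endoplasmic reticulum, had 198.9, 145.9 and 181.2 in cngc1, against 134.7, 105.7 and 119.5 in akt1 (log2 fold change 0.49). ATHSP22.0, a small heat shock protein, was weak in both mutants, at 16.4, 17.2 and 3.6 in cngc1 and 26, 25.5 and 28.2 in akt1.

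Genes of RNA splicing were split, 7 positive and 7 negative. All cngc1 arrays lay above all akt1 arrays for 5 genes (35.7%), against 9.01% of all probe sets. They lay below for 2 (14.3%), against 5.91%. The LSM genes, whose products form rings that bind U6 and messenger RNA, included LSM3A at 51.3, 57.3 and 66.9 in cngc1, against 82.1, 123.3 and 88.9 in akt1 (log2 fold change -0.60, limma adjusted p = 0.210). LSM6A (-0.41, and -0.24 without akt1 replicate 2) and LSM6B (-0.55, and -0.32 without akt1 replicate 2) were also negative, and the arrays of LSM6B overlapped. MAC3A, a splicing-associated ubiquitin ligase, had 198.6, 194.5 and 236.5 in cngc1, against 158.2, 102.6 and 140.5 in akt1 (log2 fold change 0.61, limma adjusted p = 0.230).

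Cell wall lists differed in direction. Expansins, which loosen walls, were positive in 8 of 13 cases (median 0.06), and GH9 endoglucanases, which cut glucan chains, in 8 of 9 (median 0.10). Xyloglucan endotransglucosylases were negative in 6 of 9 cases (median -0.07). Of the 3 laccase-type genes tested, 2 were positive (median 0.43), and sks15 had 149.9, 131.9 and 187.3 in cngc1, against 99.1, 72.1 and 69.8 in akt1 (log2 fold change 0.84, limma adjusted p = 0.343). The 4 tested class III peroxidases, which act on phenolics in the wall, were all negative (median -0.24). Among them AT5G66390 had 259.3, 340.9 and 321.3 in cngc1 and 333.3, 471.5 and 452.3 in akt1 (log2 fold change -0.42), with overlapping arrays.

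Of the histone and chaperone genes, 4 of 8 were negative. The histone chaperone ASF1B had 103.8, 118.4 and 108.9 in cngc1, against 161, 176.6 and 152.9 in akt1 (log2 fold change -0.51, SE 0.118, limma adjusted p = 0.208). Both groups were tight and did not overlap. Tetraspanins, membrane proteins with several spans, were negative in 6 of 9 cases, with TET3 at 317.6, 322.8 and 307.4 in cngc1, against 386.1, 488.1 and 500.6 in akt1 (log2 fold change -0.51, limma adjusted p = 0.230). Secretory and vacuolar sorting genes were negative in 23 of 39 cases (median -0.05). The small GTPase gene ARLA1D had 342.8, 372.7 and 350 in cngc1, against 500.4, 606.8 and 477.2 in akt1 (log2 fold change -0.55, limma adjusted p = 0.275). In the other direction, AT3G63460 was higher in cngc1 (0.59) without overlap, and PRA1.B4 was higher (0.60) with overlap. ARLA1C was lower (-0.47), also with overlap. Of 24 ubiquitin-conjugating enzymes and proteases, 16 were positive (median 0.02, and -0.01 after median centring), while PEX4, which acts on peroxisomes, had 282.5, 287.7 and 323.2 in cngc1, against 349.4, 466.6 and 436.1 in akt1 (log2 fold change -0.46).

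Hormone and defence lists were mixed. Auxin genes were negative in 6 of 9 cases (median -0.11), with GH3.17 the widest. Jasmonate genes were negative in 4 of 6 cases and WRKY factors in 4 of 6, and both medians changed sign in some alternatives. WRKY20 had 72.5, 64.7 and 103.5 in cngc1 and 66.9, 46.5 and 50.3 in akt1 (log2 fold change 0.44), with overlap. Defence genes were negative in 7 of 10 cases (median -0.12, and -0.01 without cngc1 replicate 3), while the defensin gene PDF1.2b had 49.7, 37.2 and 41 in cngc1 and 43.9, 10.2 and 19.8 in akt1 (log2 fold change 0.61), also with overlap. For PDF1.2b, 2 akt1 values were below the 40th percentile of their array, so the size of its difference is uncertain. Sulphur and glucosinolate genes were positive in 5 of 7 cases (median 0.19), with APS4, an ATP sulphurylase, at 684.5, 572.5 and 806.4 in cngc1 and 450.2, 603.4 and 498.4 in akt1 (log2 fold change 0.40). Genes of leucine and valine breakdown were positive in 7 of 9 cases (median 0.19, and 0.05 without cngc1 replicate 1).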

How the data were processed

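Linear signal intensities, 1 for each probe set of an array, were used as deposited. The trimmed mean (2% at each end) was 100.01 on every array, so they had been scaled before deposit, with software and annotation not given in the sources used here.

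Signals were analysed as log2(signal + 16) without the 64 control probe sets, keeping probe sets above the 40th percentile on at least 3 arrays. Group means of the 4 genotypes were fitted to 12 arrays with limma 3.58.1 in R 4.3.3, leaving 8 residual degrees of freedom, with eBayes and a mean-variance trend, two-sided tests and Benjamini-Hochberg adjustment over all 14745 probe sets (threshold 0.05). The fit was also run on simulated data with independent noise for each probe set and array. Such data lack deviations shared between arrays or probe sets, so this run checks the code only. Plots used matplotlib 3.10.9.

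Of 22810 probe sets 13513 name 1 gene, 503 several, and 8794 have no name here. Current symbols came from the TAIR10.1 gene table (13436 found), used for names and gene order only.

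The comparison, lists and markers were chosen with earlier results of these data known. Named genes are those that pass, else the 12 of smallest p in each direction, and per list up to 4 of smallest p. Leaving out list members with an unadjusted p of 0.05 or more was decided after values were seen, and psaB, rbcL, psbA, psbM and RALFL34 were also picked after values were seen. Of 18 same-numbered pairs of arrays from different groups, 3 had deviations correlated over 0.1 (range -0.17 to 0.27). Between cngc1 and akt1 the 3 pairs had 0.27, -0.03 and 0.22. Because not every pair was over 0.1, replicate numbers were not used as pairs. No arrays were identical. Alternatives were other scalings, offsets, filters and moderation, a replicate block, array weights, a covariate for titles with a repeat mark, the 6 arrays alone, each array left out, and a 2-fold call rule.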

Additional observations from a re-analysis of the deposited data

How the results depend on the processing

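AT1G27090 kept its direction and its call in 24 of 24 alternatives. The count of 1 called probe set became 4 with array weights (1 higher and 3 lower in cngc1) and 22 when calls were an unadjusted p under 0.05 with at least a 2-fold change (3 higher and 19 lower). Leaving out 1 array at a time gave 1 to 11 calls, 0 to 1 of them higher and 1 to 11 lower: akt1 replicate 1 left out gave 11, ws2 replicate 3 gave 3, and cngc1 replicate 3 gave 2. The count at an unadjusted p under 0.05 ran from 985 (without akt1 replicate 2) to 1885. With the replicate number as a block, 1 probe set was called and 1683 had an unadjusted p under 0.05, and the block changed no call. The cause of these shifts was not tested. Over 85 named genes, 2023 values kept direction and side of the threshold, 3 newly passed (all without akt1 replicate 1) and none reversed. Of the list medians, 959 kept within the spread and 47 moved. The medians of the cytochromes P450, SWEET, ATG8, RALF-like, calcium sensor, tubulin, plastid and nuclear photosynthesis lists kept their sign throughout. Of the 42 list medians 17 changed sign in at least 1 alternative, among them those of expansins, GH9 endoglucanases, glutamate receptors, jasmonate genes, WRKY factors, tetraspanins, ubiquitin enzymes, splicing genes and mitochondrial genes. Leaving out 1 array moved 28 of the 85 named genes and 39 of the 42 medians by over 1.5 times. Weak probe sets have only bounds, since no detection calls were used.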

Other observations

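The probe sets of widest difference carried a pattern of single arrays. Of the 22 with an unadjusted p under 0.05 and at least a 2-fold difference, 19 were lower in cngc1. Among those 19, cngc1 replicate 2 was the highest cngc1 array and akt1 replicate 1 the highest akt1 array for 10 (52.6%), against 10.5% of all probe sets tested. These probe sets were chosen after their values were seen. AT4G10270 had signals of 54.5, 270.2 and 53.7 in cngc1, against 755, 327.2 and 250.1 in akt1 (log2 fold change -1.88). AT1G33055 had 103.4, 247.9 and 64.9 in cngc1, against 792.2, 296.1 and 212.7 in akt1 (log2 fold change -1.50). AT3G03270 had 209.4, 560.7 and 193.6 in cngc1, against 1336.3, 604.5 and 516.9 in akt1 (log2 fold change -1.35). For each of these 3 loci, cngc1 replicate 2 reached into the range of the akt1 arrays.

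CML38 followed the same order and is the fourth of the 10 that name 1 gene, and the other 6 are unnamed or name several. Over the 10, akt1 replicate 1 was 1.66 to 7.91 times the next akt1 array. Without it the log2 fold changes ran from -1.43 to -0.67, so the direction was the same and the size smaller. Of the wide differences that did not follow this order, AT5G23840 (-1.24) and AT4G18280 (-1.15) were below the 40th percentile on all 3 cngc1 arrays, at 5.2 to 31.2 and 4.8 to 29.4. Against that floor AT5G23840 was at least 1.98-fold and AT4G18280 at least 1.59-fold lower in cngc1. The 2 named genes at least 2-fold higher in cngc1 were uneven in akt1. AT4G32605 had 113.2, 199.2 and 166.6 in cngc1 and 97.1, 19.1 and 125.4 in akt1 (log2 fold change 1.06). AT5G13520 had 77.3, 59.5 and 109 in cngc1 and 15.4, 82.4 and 19.4 in akt1 (log2 fold change 1.00).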
